A study of Mus musculus with 7 samples.

Results

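The N-methyl-D-aspartate (NMDA) receptor subunits are 7 genes in the mouse: Grin1, Grin2a, Grin2b, Grin2c, Grin2d, Grin3a and Grin3b. They were taken by gene name from the deposited count tables, where all 7 were found among 46333 genes, and all 7 passed the filter on low counts. The tables describe neurons isolated from whole brains of adult female il4ra fl/fl mice, in which a part of the gene for the interleukin-4 receptor alpha chain is flanked by the sites that Cre recombines. In the 3 cre+ libraries the mice also carried Syn cre, a Cre recombinase driven by the synapsin 1 promoter, and in the 4 cre- libraries they did not, so that floxed alleles are shared by all mice and the groups differ in the transgene. Cells were enriched by removing microglia, oligodendrocytes and astrocytes with antibodies, and whether vessel cells were targeted in that step is not stated. The study checked purity by flow cytometry, with an endothelial stain among those used, and reported the isolates as highly enriched in neurons. The comparison of cre+ with cre- asks how deleting the interleukin-4 receptor in neurons relates to their transcripts, here those of a receptor family that carries excitatory synaptic signals.

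NMDA receptors are glutamate-gated ion channels made of 4 subunits. Grin1 encodes GluN1, the glycine-binding subunit that every NMDA receptor needs. Grin2a to Grin2d encode the GluN2 subunits, which bind glutamate and set how long the channel stays open, and Grin3a and Grin3b encode GluN3 subunits, which bind glycine and lower the calcium flow. In the rodent forebrain Grin2b prevails early in life and Grin2a joins it as synapses mature. Grin2c is best known from cerebellar granule neurons, and Grin2d from the brainstem, the diencephalon and inhibitory neurons.

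Sequencing depth ran from 68213223 to 94376841 counts per library. Levels are given as CPM, counts scaled to a common library total with the TMM factors of edgeR. Il4ra itself was at 29.5, 28.7 and 24.4 CPM in cre+ libraries, against 20.0, 23.2, 29.6 and 22.4 CPM in cre- libraries. These counts are over the whole gene, and reads of the deleted exons were not counted apart, so they do not check the genotype labels. The cre+ 1 library stood apart with the lowest levels of pan-neuronal markers. Values without it are given for the subunits and for most of the partner genes and lists below. In bulk RNA, fewer cells of a type and less RNA per cell cannot be told apart.

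All 7 subunits had a negative log2 fold change of cre+ over cre-, with a median of -0.73, against -0.04 over the 21542 genes tested, of which 54.0% were negative. The quasi-likelihood test of edgeR called 0 of the 7 in either direction at an adjusted p of 0.05, as it called 0.0% of all tested genes, higher or lower. At an unadjusted p under 0.05, 4 of the 7 were lower and 0 were higher, beside 9.75% and 10.2% of all genes. DESeq2, the test the study used, called Grin1 and Grin2b lower and no member higher, where it called 3.03% of 29539 genes lower and 3.71% higher. Those 29539 genes are all with any count, and some got no adjusted p, so the shares among genes open to a call are higher. limma-voom called 0 of the 7, and 0.0% of all tested genes in either direction. Without the cre+ 1 library DESeq2 called Grin1 alone, and without the cre- 2 library it called no member. DESeq2 calls over all genes fell as well, from 895 lower to 512 without cre+ 1 and to 348 without cre- 2. CPM of the genotypes did not overlap for Grin3b only. Thus 1 of 7 members was separated downward, beside 9.72% of all genes, and none upward, beside 8.94%. Without cre+ 1 all 7 log2 fold changes stayed negative in edgeR, with a median of -0.65. Grin1 was then at -0.89, Grin2a at -0.96, Grin2b at -0.61, Grin2c at -0.94, Grin2d at -0.40, Grin3a at -0.49 and Grin3b at -0.65.

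Grin1 (ENSMUSG00000026959; GRCm39, chromosome 2, 25181193 to 25209199, minus strand) was at 34.8, 70.8 and 89.0 CPM in cre+ libraries 1 to 3, against 183.2, 169.8, 155.6 and 83.9 CPM in cre- libraries 1 to 4. Libraries cre- 1 to 3 stood above every cre+ library, and cre- 4 lay just below cre+ 3, so the genotypes overlapped. The means were 64.9 ± 27.6 CPM in cre+ (SD, n = 3) and 148.1 ± 44.3 CPM in cre- (SD, n = 4). The log2 fold change was -1.19 ± 0.35 (SE), at an adjusted p of 0.134 by edgeR and 0.0101 by DESeq2. It ran from -1.49 to -0.89 as each library was left out in turn in edgeR, and the DESeq2 call was lost without cre- 2, at an adjusted p of 0.0567.

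Grin1 shares 1307 exon bases with Grin1os, a noncoding RNA gene on the opposite strand. Grin1os was at 5.36, 6.90 and 10.2 CPM in cre+ libraries, against 19.8, 25.4, 23.1 and 11.9 CPM in cre- libraries, without overlap. Its log2 fold change was -1.42 ± 0.31 (SE), at an adjusted p of 0.0939 by edgeR and 0.000597 by DESeq2, and without cre+ 1 it was -1.23, at 0.00844 by DESeq2. The sources used here do not say whether strand was used in counting, and without it reads of this overlap cannot be told apart.

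Grin2a (ENSMUSG00000059003; chromosome 16, 9385762 to 9813424, minus strand) had the most negative log2 fold change of the 7 and a large error. Its level was 2.22, 13.6 and 10.8 CPM in cre+ libraries, against 35.9, 24.8, 22.1 and 12.3 CPM in cre- libraries. The cre+ 1 library, with 196 counts, was far below the other 2 of its genotype, and cre+ 2 lay above cre- 4. The means were 8.89 ± 5.95 CPM in cre+ (SD, n = 3) and 23.8 ± 9.70 CPM in cre- (SD, n = 4), a log2 fold change of -1.42 ± 0.58 (SE) at an adjusted p of 0.222 by edgeR and 0.0517 by DESeq2. Without cre+ 1 it was -0.96 in edgeR, with an adjusted p of 0.282.

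Grin2b (ENSMUSG00000030209; chromosome 6, 135690231 to 136150509, minus strand) was at 22.4, 52.2 and 46.2 CPM in cre+ libraries, against 95.4, 79.7, 74.8 and 49.3 CPM in cre- libraries. The order of libraries resembled that of Grin1, with cre+ 1 lowest and cre- 1 highest, and only cre- 4 reached down into the range of cre+. The means were 40.3 ± 15.7 CPM in cre+ (SD, n = 3) and 74.8 ± 19.2 CPM in cre- (SD, n = 4). The log2 fold change was -0.89 ± 0.31 (SE), at an adjusted p of 0.176 by edgeR and 0.0402 by DESeq2. The DESeq2 call was lost on leaving out any of 5 libraries (cre+ 1, cre+ 3, cre- 1, cre- 2 or cre- 3), with adjusted p-values up to 0.153. Of its 25460 exon bases, 175 and 265 are shared with the noncoding Gm14329 and Gm26653 on the opposite strand.

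Grin2c (ENSMUSG00000020734; chromosome 11, 115139995 to 115158069, minus strand) behaved unlike the others. Its level was 19.8, 7.57 and 7.71 CPM in cre+ libraries, against 5.09, 24.4, 24.7 and 4.48 CPM in cre- libraries. The 7 libraries fell into a high set (cre+ 1, cre- 2 and cre- 3) and a low set that each held libraries of both genotypes, and the spread within cre- alone was 5.52-fold between its lowest and highest library. The means were 11.7 ± 7.01 CPM in cre+ (SD, n = 3) and 14.7 ± 11.4 CPM in cre- (SD, n = 4). The log2 fold change was -0.33 ± 0.68 (SE) at an adjusted p of 0.837 by edgeR, and its sign turned in limma-voom, at 0.03, and without cre- 2 or cre- 3.

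Grin2d (ENSMUSG00000002771; chromosome 7, 45481307 to 45527802, minus strand) was at 15.7, 8.81 and 12 CPM in cre+ libraries, against 10.7, 20.8, 12.7 and 10.6 CPM in cre- libraries. The genotypes overlapped, and the highest library, cre- 2, was also high for Grin2c. The log2 fold change was -0.17 ± 0.29 (SE), at an adjusted p of 0.797 by edgeR and 0.769 by DESeq2. Its sign turned without cre+ 2, at 0.01, and without cre- 2, at 0.10.

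Grin3a (ENSMUSG00000039579; chromosome 4, 49661611 to 49845744, minus strand) was at 4.94, 8.73 and 7.21 CPM in cre+ libraries, against 16.6, 7.70, 9.75 and 10.6 CPM in cre- libraries. The cre- 1 library was the highest and cre- 2 lay within the range of cre+, so the genotypes overlapped. The log2 fold change was -0.68 ± 0.30 (SE), at an adjusted p of 0.255 by edgeR and 0.138 by DESeq2.

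Grin3b (ENSMUSG00000035745; chromosome 10, 79806549 to 79813024, plus strand), best known from motor neurons, was at 2.31, 2.56 and 3.01 CPM in cre+ libraries, against 3.71, 3.96, 5.99 and 3.78 CPM in cre- libraries. Every cre+ library lay below every cre- library, and cre- 3 stood above the rest. The log2 fold change was -0.73 ± 0.27 (SE), at an adjusted p of 0.196 by edgeR and 0.0591 by DESeq2. These levels rest on 189 to 431 counts per library, and 1059 exon bases of Grin3b are shared with Tmem259 on the opposite strand, a gene with 12000 to 19909 counts per library, so the level of Grin3b is uncertain. Tmem259 had a log2 fold change of -0.22 ± 0.14 (SE), at an adjusted p of 0.434 by edgeR.

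**Figure D1:**
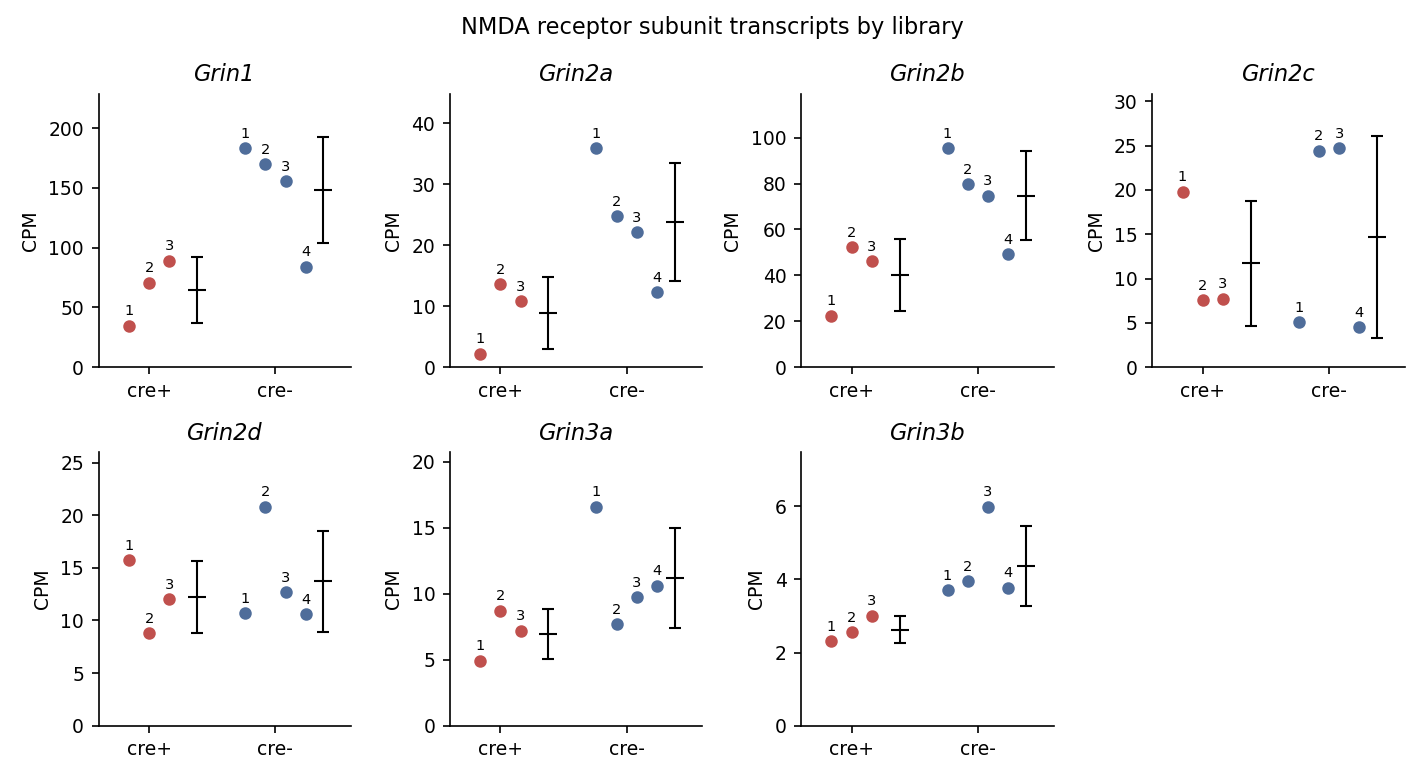
Level of each NMDA receptor subunit in CPM (vertical axis, from 0 in each panel) in 3 cre+ libraries (red, left) and 4 cre- libraries (blue, right). Points are libraries with their replicate number, and bars are the mean ± SD. Grin1, Grin2a and Grin2b share a low cre+ 1 and a low cre- 4, Grin2c splits within each genotype, and Grin3b alone has no overlap.

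Per kilobase of exon, taken as the union of all annotated exons, Grin1 led with a mean of 10.1 CPM per kb over the 7 libraries. Grin2b followed with 2.36, Grin2d with 1.66, Grin2c with 1.20, Grin3b with 1.10, Grin2a with 0.970 and Grin3a with 0.712 CPM per kb. Grin1 was above Grin2b in 7 of 7 libraries, Grin2b above Grin2d in 6 and Grin2d above Grin2c in 6. Further down the order was not separated: Grin2c was above Grin3b in 3 of 7 libraries, Grin3b above Grin2a in 5 and Grin2a above Grin3a in 5. With the length of the Ensembl canonical transcript, Grin1 kept the lead at 26.0 CPM per kb, Grin2c, Grin2b and Grin2d were within 2.40 to 2.50, and Grin3a, Grin2a and Grin3b within 1.10 to 1.22 CPM per kb. The lead of Grin1 in 7 of 7 libraries held under either length, while the places below it depended on the transcript assumed.

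The make-up of the 4 Grin2 genes is a measure that does not depend on library scaling, though it depends on the length taken for each gene. Grin2a made up 2.59%, 16.5% and 13.0% of the summed Grin2 CPM per kb in cre+ libraries, against 26.4%, 14.8%, 15.4% and 15.8% in cre- libraries. Grin2b made up 18.5%, 44.4% and 39.1% in cre+ libraries, against 49.5%, 33.5%, 36.7% and 44.3% in cre- libraries. The cre+ 1 library stood apart on both, and Grin2c with 37.2% and Grin2d with 41.7% took up the rest there. The other 2 cre+ libraries lay within the cre- range for Grin2b and next to or within it for Grin2a.

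The ratio of Grin2b to Grin2a counts was 10.1, 3.82 and 4.28 in cre+ libraries, against 2.66, 3.22, 3.39 and 3.99 in cre- libraries. The mean log2 ratio was higher in cre+ by 0.74, with p = 0.0571 in an exact two-sided permutation test over the 35 splits of 7 libraries, where the smallest possible p was 0.0286. Without cre+ 1 the difference was 0.30. The summed Grin2 level over that of Grin1, each per exon length, was 1.52, 0.722 and 0.578 in cre+ libraries, against 0.459, 0.611, 0.571 and 0.577 in cre- libraries. This log2 ratio was higher in cre+ by 0.64 (exact permutation p = 0.0571), and by 0.23 without cre+ 1. The size of the ratio depends on the lengths taken, for Grin1 11089 bases as the exon union and 4318 in the canonical transcript. With canonical lengths the difference was 0.72 (exact permutation p = 0.0857). Neither ratio passed the threshold, and in both the cre+ 1 library carried most of the difference.

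**Figure D2:**
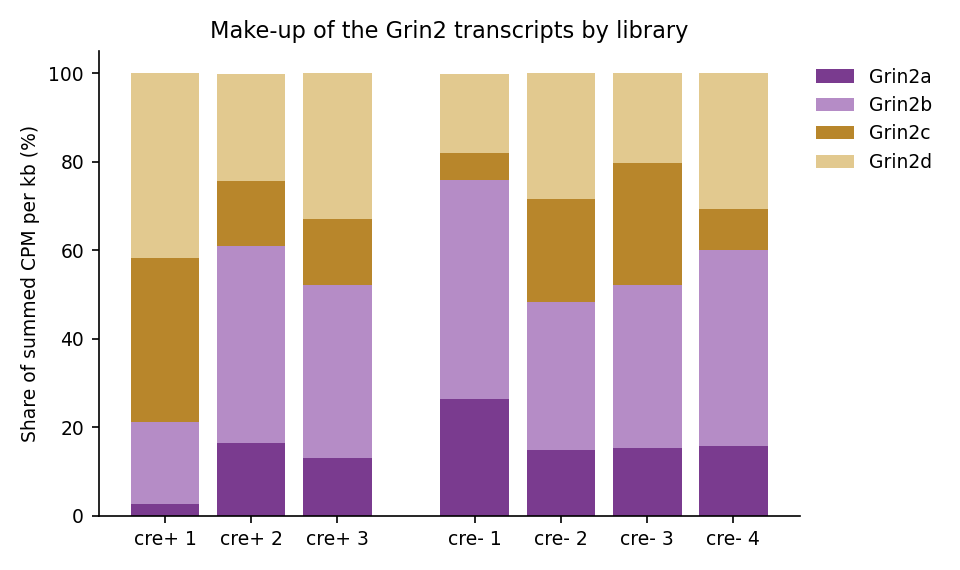
Share of each Grin2 gene in the summed Grin2 CPM per kb of exon (vertical axis, percent) in each library, cre+ on the left and cre- on the right. In cre+ 1 Grin2a and Grin2b shrink to 2.59% and 18.5%, and in the other cre+ bars both lie within or next to their cre- range.

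To show the DNA in front of a member that differed between genotypes by DESeq2 and of the member that varied most within cre-, the 250 bases before the start of Grin1 and of Grin2c are printed, from a RefSeq table of promoters that held 4 of the 7 members (Grin1, Grin2c, Grin2d and Grin3b). Each matched GRCm39 exactly and at a single place, Grin1 at chr2:25209200-25209449 and Grin2c at chr11:115158070-115158319, both on the minus strand, and they are given 5′ to 3′ in the direction of the gene. Capitals mark GGGCGG or its complement CCGCCC, the GC box bound by Sp1 family factors, and the palindrome CACGTG, an E-box.
Grin1: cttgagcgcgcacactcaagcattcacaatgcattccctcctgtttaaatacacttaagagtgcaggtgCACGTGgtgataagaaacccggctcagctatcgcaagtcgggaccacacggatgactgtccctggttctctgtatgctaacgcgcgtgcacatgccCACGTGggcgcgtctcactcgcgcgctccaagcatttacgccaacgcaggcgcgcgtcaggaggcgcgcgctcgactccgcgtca
Grin2c: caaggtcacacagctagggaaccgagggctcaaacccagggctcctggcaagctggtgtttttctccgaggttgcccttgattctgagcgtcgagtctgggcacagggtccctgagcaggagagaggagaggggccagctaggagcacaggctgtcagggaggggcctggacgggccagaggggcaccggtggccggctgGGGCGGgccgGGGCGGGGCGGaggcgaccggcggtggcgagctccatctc
The Grin1 window held 2 CACGTG and no GC box, with 58.8% G and C. The Grin2c window held 3 GC boxes, of which 2 overlap each other, and no CACGTG, with 68.8% G and C. Over the first 250 bases of 32851 promoters in the table, 32.7% held a GC box on either strand, 6.02% held CACGTG, and the median was 52.4% G and C. A match is a description of the letters and does not show that a factor binds there.

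Markers of neurons mostly had the sign of the subunits. Over all genes, DESeq2 called 3.03% lower and 3.71% higher, and edgeR gave 9.75% and 10.2% an unadjusted p under 0.05. The counts called per list, here and below, stand beside these shares. Of 13 pan-neuronal markers, 13 had a negative log2 fold change with a median of -0.56, DESeq2 called 4 lower, and edgeR called 0 and gave 10 an unadjusted p under 0.05. With cre+ 1 left out the median was -0.37, and DESeq2 and edgeR called 0, while DESeq2 gave 4 an unadjusted p under 0.05. Their summed level was 1662 to 2830 CPM in cre+ libraries, against 2805 to 4053 CPM in cre- libraries, and no marker was at 0 in any library. Of 6 forebrain excitatory neuron markers, 6 were negative with a median of -1.38 and DESeq2 called 3 lower. As a mean log2 level centred on cre-, they stood at -2.56, -0.81 and -0.83 in cre+ libraries, against 0.82, -0.15, -0.27 and -0.40 in cre- libraries, so cre+ 1 was far below the rest. Leaving that library out gave a median of -0.94 and 2 DESeq2 calls. Of 8 immature neuron markers, 8 were negative with a median of -0.47, and DESeq2 called 6 lower and 0 higher. Genotypes did not overlap for 7 of these 8, beside 9.72% of all genes lower without overlap. Their summed level was 1778 to 2306 CPM in cre+ libraries, against 2610 to 2851 CPM in cre- libraries. DESeq2 still called 4 of the 8 lower without cre+ 1, with a median of -0.40. Of 7 inhibitory neuron markers, 6 were negative with a median of -0.56 and DESeq2 called 1 lower, and without cre+ 1 the median was -0.40 with 1 called. The 6 cerebellar granule neuron markers had a median of 0.10 (0.28 without cre+ 1), DESeq2 called 0, and edgeR gave 0 of them an unadjusted p under 0.05.

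Markers of other cell types mostly had the opposite sign. Of 12 endothelial markers, 12 were positive with a median of 0.64, and DESeq2 called 9 higher, while edgeR called 0 and gave 9 an unadjusted p under 0.05. Their summed level was 13899 to 20253 CPM in cre+ libraries, against 9321 to 12927 CPM in cre- libraries, with no marker at 0. Without cre+ 1 the endothelial median was 0.43 and DESeq2 called 3 higher. Of 8 astrocyte markers, DESeq2 called 4 higher, with a summed level of 271.5 to 392.6 CPM in cre+ libraries, against 174.8 to 264.6 CPM in cre- libraries, and it called 4 without cre+ 1 as well. Of 9 mural cell markers, 8 were positive with a median of 0.73, and DESeq2 called 5 higher, or 4 without cre+ 1. Their summed level was 587.1 to 830.7 CPM in cre+ libraries, against 388.2 to 559.4 CPM in cre- libraries. The 5 meningeal fibroblast markers had a median of 1.06, with 2 called higher by DESeq2 and a summed level of 113.2 to 523.2 CPM in cre+ libraries, against 65.9 to 111.1 CPM in cre- libraries. The sum was highest in cre+ 3. Leaving out cre+ 1 gave the fibroblast markers a median of 1.35, with 2 called higher by DESeq2.

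The summed levels of oligodendrocyte, oligodendrocyte precursor, microglia and ventricular markers overlapped between genotypes. The 8 oligodendrocyte markers were all positive with a median of 0.66, and DESeq2 called 2 higher, but their summed levels overlapped, at 664.4 to 1935 CPM in cre+ libraries and 639.5 to 1246 CPM in cre- libraries. Without cre+ 1 the oligodendrocyte median was 1.07 and DESeq2 called 3. Of 5 oligodendrocyte precursor markers, with a median of 0.22, DESeq2 called 1 higher. The 8 microglia markers were positive with a median of 0.41, neither DESeq2 nor edgeR called any, and edgeR gave 0 an unadjusted p under 0.05. Their summed level was 683.2 to 1071 CPM in cre+ libraries, against 173.9 to 1608 CPM in cre- libraries. The 6 choroid plexus and ependyma markers were positive with a median of 0.86, neither tool called any, and edgeR gave 2 an unadjusted p under 0.05. Their summed level was 5965 to 19150 CPM in cre+ libraries, against 3794 to 9020 CPM in cre- libraries. Leaving out cre+ 1 gave medians of 0.52 for oligodendrocyte precursor, 0.56 for microglia and 1.10 for choroid plexus and ependyma markers. DESeq2 then called 0 in each of these lists. Markers at 0 in a library were Tagln of the mural, Tmem212 of the ependymal and Gabra6 of the granule neuron list. The part of these marker levels in the values of the NMDA receptor subunits was not tested.

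Set against the mean log2 CPM of the 13 pan-neuronal markers in the same library, 5 of the 7 subunits differed less between genotypes than in CPM. The marker mean was 6.50, 7.20 and 7.35 in cre+ libraries, against 7.98, 7.57, 7.75 and 7.35 in cre- libraries, a difference of -0.64 on the log2 scale. Grin1 relative to that mean was at -1.38, -1.05 and -0.87 in cre+ libraries, against -0.46, -0.16, -0.47 and -0.96 in cre- libraries. Only cre- 4 fell among the cre+ values, and the difference left was -0.59, with p = 0.0857 in an exact two-sided permutation test. Grin2a kept a difference of -1.04 (exact permutation p = 0.0857), of which cre+ 1, at -5.34, was the lowest value, and without that library it was -0.48. Grin2b was left with -0.30 (exact permutation p = 0.171). Grin3a was at -0.02 and Grin3b at -0.06, with exact permutation p-values of 0.914 and 0.8, and each changed sign when single libraries were left out. With the median over the marker list in place of the mean, the differences were larger, at -0.52 for Grin2b, -0.23 for Grin3a and -0.28 for Grin3b (exact permutation p = 0.114, 0.343 and 0.286). Grin2c, at 0.60, and Grin2d, at 0.49, were on average higher in cre+ on this scale, with exact permutation p-values of 0.6 and 0.4. Both rested on cre+ 1, since without it they were -0.12 and 0.03. None of these 7 comparisons passed 0.05.

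**Figure D3:**
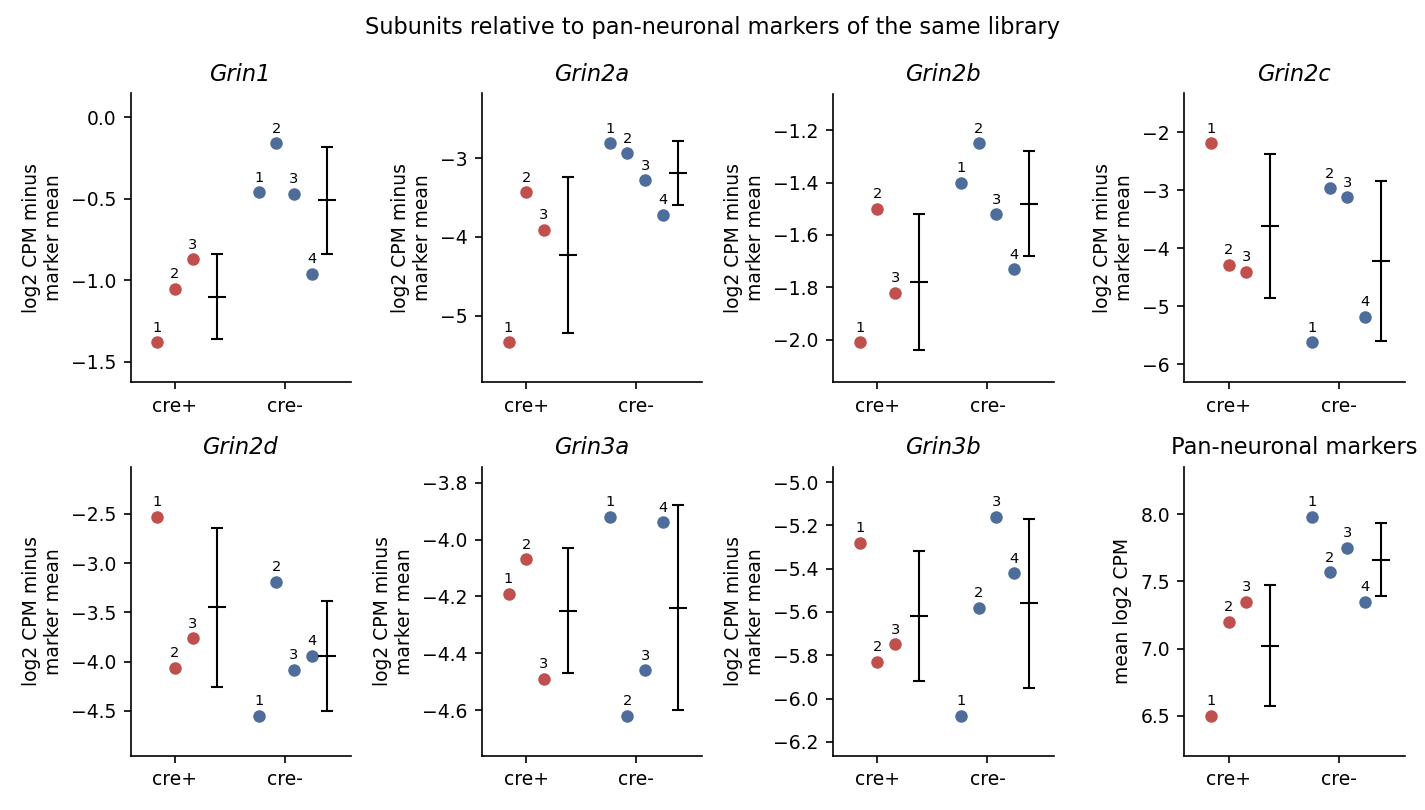
Log2 CPM of each subunit minus the mean log2 CPM of 13 pan-neuronal markers in the same library (vertical axis, own scale in each panel), with that marker mean in the last panel. Points are libraries with their replicate number, cre+ in red on the left and cre- in blue on the right, and bars are the mean ± SD. Genotypes overlap in all 7 subunits, and cre+ 1 has the lowest marker mean, 6.50.

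AMPA and kainate receptor subunits were set beside the 7. The 4 AMPA receptor subunits, which carry fast excitatory currents, were negative in 4 of 4 with a median of -0.79, and DESeq2 called Gria2 and Gria3 lower. Gria2, the subunit that keeps AMPA receptors from passing calcium, was at 100.7, 180.4 and 187.5 CPM in cre+ libraries, against 317.3, 387.5, 286.8 and 231.3 CPM in cre- libraries. The genotypes did not overlap, and its log2 fold change was -0.97 ± 0.25 (SE), at an adjusted p of 0.102 by edgeR and 0.00462 by DESeq2. Gria3 had -1.26 ± 0.49 (SE), at an adjusted p of 0.207 by edgeR and 0.0461 by DESeq2. Without cre+ 1 Gria2 was at -0.74 and still called by DESeq2, at 0.0181, and Gria3 was at -0.84 and no longer called, at 0.0929.

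Of the 5 kainate receptor subunits, 5 were negative with a median of -0.74, and DESeq2 called Grik5 and Grik2 lower. Grik5, a high-affinity subunit, averaged 98.7 ± 15.8 CPM in cre+ and 165.0 ± 26.6 CPM in cre- (SD, n = 3 and 4), without overlap. Its log2 fold change was -0.74 ± 0.16 (SE), at an adjusted p of 0.0939 by edgeR and 0.00220 by DESeq2. Grik2, a core subunit of kainate receptors, had -0.97 ± 0.27 (SE), at an adjusted p of 0.116 by edgeR and 0.0122 by DESeq2. With cre+ 1 left out DESeq2 called Grik5 alone, at 0.0276, and Grik2 was at -0.75. No test of a difference between receptor families was made.

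**Figure D4:**
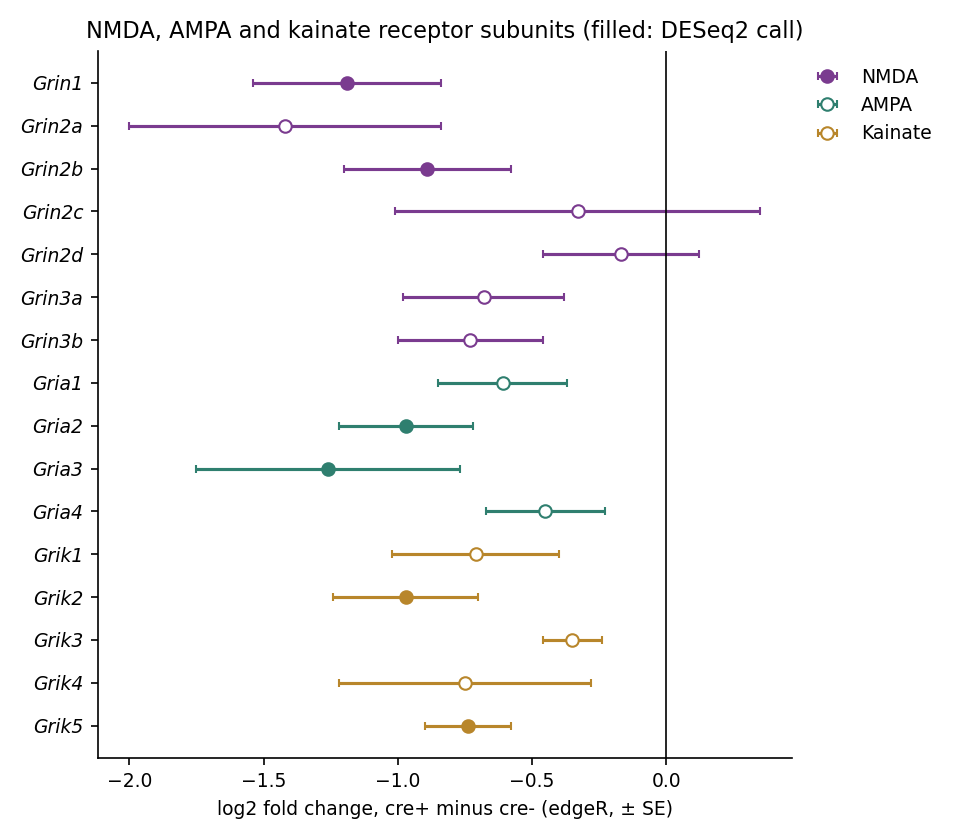
Log2 fold change of cre+ over cre- (horizontal axis, edgeR, bars ± SE) for 7 NMDA, 4 AMPA and 5 kainate receptor subunits. Filled points were called by DESeq2 at an adjusted p of 0.05, none was called by edgeR, and all 16 points lie below 0.

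NMDA receptors are held at the synapse by scaffold proteins and moved by motors and adaptors. Of 15 such genes, 13 were negative with a median of -0.57, and DESeq2 called 3 lower and 0 higher. Pacsin1, an endocytic adaptor that binds GluN3A, was at 38.2, 58.8 and 80.8 CPM in cre+ libraries, against 140.4, 113.3, 109.4 and 77.6 CPM in cre- libraries. Only cre- 4 fell below cre+ 3, and the log2 fold change was -0.90 ± 0.27 (SE), at an adjusted p of 0.138 by edgeR and 0.0191 by DESeq2. Lin7b, a PDZ adaptor, had -1.26 ± 0.40 (SE) without overlap of the genotypes, at an adjusted p of 0.149 by edgeR and 0.0190 by DESeq2. Kif17, a kinesin that carries GluN2B along dendrites, had -1.26 ± 0.43 (SE), at an adjusted p of 0.167 by edgeR and 0.0301 by DESeq2. Dlg4, which encodes the scaffold PSD-95, averaged 116.6 CPM in cre+ and 172.5 CPM in cre-, a log2 fold change of -0.57 that was not called by either tool, and Dlg1 had 0.13. Without cre+ 1 the median of the 15 was -0.36 and DESeq2 called Lin7b alone, at -0.89 with an adjusted p of 0.0272, while Pacsin1 was at -0.66 and Kif17 at -0.95.

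Of 16 kinases and phosphatases that act on the receptor, 14 were negative with a median of -0.32, and DESeq2 called 4 lower and 0 higher. Camk2b, the beta subunit of the calcium/calmodulin kinase that binds GluN2B, was at 59.3, 131.0 and 146.0 CPM in cre+ libraries, against 293.7, 287.1, 273.4 and 125.7 CPM in cre- libraries. As for Grin1, cre- 4 fell into the cre+ range, and the log2 fold change was -1.13 ± 0.37 (SE), at an adjusted p of 0.163 by edgeR and 0.0203 by DESeq2. Ptpn5, the phosphatase STEP that lowers surface NMDA receptors, had -1.26 ± 0.47 (SE) and a DESeq2 adjusted p of 0.0351. Cdk5 showed a small difference with little spread, 67.4 ± 4.47 CPM in cre+ and 83.6 ± 4.92 CPM in cre- (SD, n = 3 and 4), a log2 fold change of -0.31 ± 0.09 (SE) with a DESeq2 adjusted p of 0.0396. Leaving out cre+ 1 gave the 16 a median of -0.25, and DESeq2 and edgeR called 0, while DESeq2 gave 4 an unadjusted p under 0.05. Camk2b was then at -0.83, Ptpn5 at -0.88 and Cdk5 at -0.30.

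Downstream of the receptor, 8 of 12 genes were negative with a median of -0.35, and DESeq2 called 2 lower and 1 higher. Kalrn, a GTPase exchange factor of dendritic spines, was at 82.0, 127.2 and 113.8 CPM in cre+ libraries, against 197.8, 171.2, 149.9 and 128.7 CPM in cre- libraries. The genotypes did not overlap, and the log2 fold change was -0.59 ± 0.19 (SE), at an adjusted p of 0.151 by edgeR and 0.0445 by DESeq2. Tiam1, a Rac exchange factor that NMDA receptors activate, went the other way with 0.51 ± 0.14 (SE) and a DESeq2 adjusted p of 0.0223. Nos1, the neuronal nitric oxide synthase tethered to the receptor through PSD-95, averaged 24.7 CPM in cre+ and 24.6 CPM in cre-. Without cre+ 1 neither Kalrn, at -0.43, nor Tiam1, at 0.37, was called, and DESeq2 called 1 of the 12.

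Of 6 membrane proteins associated with the receptor, 6 were negative with a median of -0.95, and DESeq2 called Neto1 and Ephb2 lower. Neto1, an auxiliary protein of NMDA and kainate receptors, was at 9.61, 18.1 and 21.0 CPM in cre+ libraries, against 36.9, 33.8, 37.1 and 20.5 CPM in cre- libraries. Its cre- 4 value lay within the range of cre+, and the log2 fold change was -0.98 ± 0.30 (SE), at an adjusted p of 0.137 by edgeR and 0.0197 by DESeq2. Ephb2, a receptor tyrosine kinase that binds GluN1, had -0.60 ± 0.18 (SE) without overlap and a DESeq2 adjusted p of 0.0327. Neither was called without cre+ 1, at -0.72 for Neto1 and -0.46 for Ephb2, and DESeq2 gave both an unadjusted p under 0.05.

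Genes for the supply and uptake of glutamate and of the co-agonists D-serine and glycine were divided, with 5 of 14 negative and a median of 0.34. DESeq2 called 2 lower, Slc17a7 among them, and Glul and Phgdh higher. Slc17a7, the vesicular glutamate transporter of forebrain excitatory neurons, was at 42.4, 136.1 and 185.4 CPM in cre+ libraries, against 442.6, 282.9, 226.3 and 185.6 CPM in cre- libraries. The genotypes were separated only by the narrow gap between cre+ 3 and cre- 4, and the log2 fold change was -1.23 ± 0.48 (SE), at an adjusted p of 0.207 by edgeR and 0.0410 by DESeq2. Glul, the glutamine synthetase known from astrocytes, was at 1182, 1150 and 1204 CPM in cre+ libraries, against 717.2, 656.3, 785.5 and 824.2 CPM in cre- libraries, with a log2 fold change of 0.66 ± 0.12 (SE). Phgdh, an enzyme of serine synthesis also known from astrocytes, had 0.44 ± 0.14 (SE) and a DESeq2 adjusted p of 0.0447. When cre+ 1 was left out DESeq2 called Glul alone, at 0.65 with an adjusted p of 0.000377, while Slc17a7 was at -0.83 and Phgdh at 0.43. Of the 20 partner and receptor genes named by rule, 20 kept their sign without that library and 5 kept the DESeq2 call. They were picked by their DESeq2 call over all 7 libraries, and the refit drops only cre+ 1. The kept signs are thus no separate check. These directions stand beside the higher astrocyte and endothelial marker levels in cre+ given above, and their part was not tested.

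**Figure D5:**
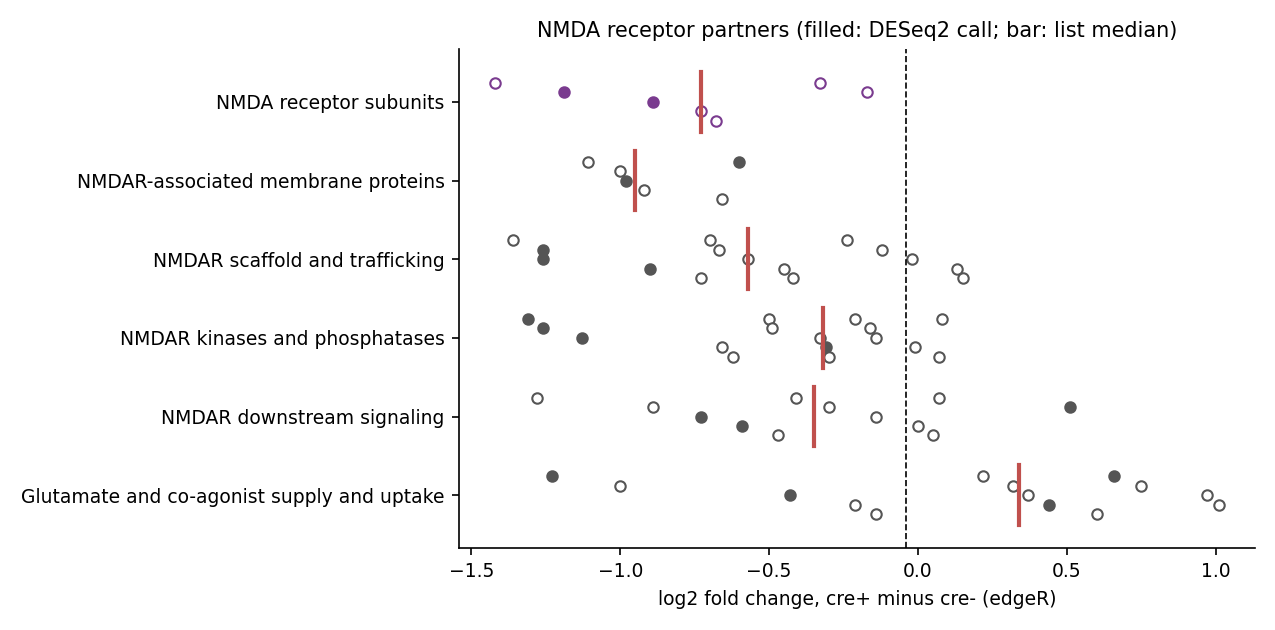
Log2 fold change of cre+ over cre- (horizontal axis, edgeR) for the 7 subunits and the genes of 5 partner lists. Filled points were called by DESeq2 at an adjusted p of 0.05, red bars are list medians, and the dashed line is the median of all genes tested, -0.04. Medians of 5 of the 6 groups lie left of that line and that of glutamate and co-agonist supply and uptake, 0.34, to its right.

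The genes whose levels moved most like each subunit over the 7 libraries were sought among 14246 genes with a mean of at least 1 CPM, by the root mean square difference of centred log2 CPM. This is a description over libraries that differ in genotype and in the marker levels of cell types, and the part of either was not tested. Grin1 lay closest to Ptprn, at 0.08, and to Camk2b, at 0.09. Grin2a lay closest to Nptx1, at 0.17, and Tbr1, at 0.19, and Grin2b to Fut9, at 0.07, and Erc2, at 0.08. Tbr1 is a transcription factor of cortical excitatory neurons and one of the 6 forebrain excitatory markers. For Grin2c the nearest genes, Frmd7 at 0.43 and Adamts19 at 0.44, were far, and they were also high in cre+ 1, cre- 2 and cre- 3. Grin2d lay closest to Tyw5, at 0.13, and Zfp53, at 0.14. Grin3a lay closest to Lypd1 and Resp18, both at 0.11, and Grin3b to Fmnl1, at 0.14, and Pimreg, at 0.15. Among the subunits themselves, Grin1 and Grin2b were the closest pair, at 0.22, and Grin2c lay farthest from any other, with Grin2d the nearest to it at 0.74.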

How the data were processed

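RNA of isolated neurons was sequenced as poly(A) libraries with paired reads, 3 cre+ and 4 cre- per the labels. The study gives mice as the n of this comparison, and each library was taken as a separate mouse, which the labels do not state. As the methods and the submitters' notes state, the authors used fastp, FastQC, STAR (GRCm39), SAMtools, StringTie and DESeq2, with versions, annotation release and strand setting not given in the sources used here. Deposited raw files hold counts per gene. The deposited normalized signal is the raw count divided by a factor per library, 0.916 to 1.108, and was not tested. Repeats of 46 symbols (49 rows) were dropped. Column headers carry codes of unstated meaning whose letters differ between genotypes, so that a batch they might mark and the genotype cannot be told apart.

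Counts were tested with edgeR 4.0.16 (quasi-likelihood F-test, TMM, filterByExpr, genotype as the only term) and Benjamini-Hochberg adjustment over 21542 genes, at 0.05. Alternatives were DESeq2 1.42.0 on 29539 genes with any count, limma 3.58.1 (voom), other scalings and filters, libraries left out and a replicate block. Some of the 29539 genes got no adjusted p in DESeq2 and count as not called. The edgeR and DESeq2 tests were run on simulated data first. The SE of an edgeR log2 fold change was derived as its absolute value divided by the square root of its F statistic. Log2 CPM used a prior count of 2. Lengths and overlaps came from GENCODE M39 on GRCm39, and promoters from a RefSeq table built on GRCm38.p6. The named genes were all subunits, Il4ra, of each partner list up to 4 called by DESeq2 per direction, and the 2 nearest genes in pattern per subunit. Some genes that this rule names are not reported here. Grin1os, Tmem259, Gm14329 and Gm26653 were added as overlapping genes, and Dlg4, Dlg1 and Nos1 were chosen after their values were seen. Members, lists and tests were chosen with earlier results of these data known.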

Additional observations from a re-analysis of the deposited data

Results flagged for a closer look

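In 16 sets of 4 cre- values examined for a library far from the rest, 1 was found, where chance gives about 1 in 20 sets. It was the Grin3b level of cre- 3, 5.99 CPM, with a gap to its nearest neighbour of 0.89 of the range of the 4 libraries, above Dixon's critical value. Grin3b shares 1059 exon bases with Tmem259 on the opposite strand, whose level in cre- 3 was 247.7 CPM, also the highest of the 7 libraries. The part of that overlap in the Grin3b value was not tested.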

How the results depend on the processing

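Of 161 alternative log2 fold changes of the 7 subunits, 152 had the sign of the value reported and 15 passed an adjusted p of 0.05, all of them in DESeq2. Signs turned for Grin2c (0.03 in limma-voom, and -0.94 to 0.05 with a library left out) and for Grin2d (-0.40 to 0.11 with a library left out). With DESeq2 in place of edgeR, genes called went up to 1095 higher and 895 lower in place of 0 and 0, and members called lower to 2, with Grin1 at -1.19 (adjusted p 0.0101) and Grin2b at -0.89 (0.0402). As each library was left out, edgeR called 0 to 3 genes higher and 0 to 2 lower, and 0 members. DESeq2 then called 407 to 1163 genes higher and 348 to 1318 lower, and 0 to 3 members lower. Over both tools the log2 fold changes then ran from -1.49 to -0.88 for Grin1 (called by DESeq2 in 6 of 7), from -1.87 to -0.95 for Grin2a (called in 2) and from -1.12 to -0.60 for Grin2b (called in 2).

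The replicate numbers gave no sign of pairing, since deviations from the group means correlated at -0.0267, -0.00357 and 0.0876. With so few libraries this cannot exclude shared litters or preparations, and the study calls the mice littermates. With the numbers as a block, edgeR called 0 genes and gave -1.48 for Grin1, -1.88 for Grin2a and -1.12 for Grin2b. DESeq2 with the replicate block gave -1.47, -1.87 and -1.11 and called these 3 members, among 765 genes higher and 778 lower. The block fits take no part of the difference from cre- 4, the only library with its number. Leaving out cre- 4 without a block, DESeq2 gave -1.38, -1.63 and -1.04 and called the same 3 members.

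Relative to pan-neuronal markers, leaving out libraries turned the sign of Grin2c (-0.12 to 1.02), Grin3a (-0.14 to 0.11) and Grin3b (-0.23 to 0.07). The median over the marker list in place of the mean gave -0.81 for Grin1, -1.26 for Grin2a, -0.52 for Grin2b, 0.38 for Grin2c, 0.27 for Grin2d, -0.23 for Grin3a and -0.28 for Grin3b. With other lengths, levels per kb moved to 20.5 (longest transcript) and 26.0 (canonical) for Grin1, to 1.20 and 1.22 for Grin3a, and with the canonical length to 2.50 for Grin2c and 2.40 for Grin2d. Both length choices other than the exon union left Grin1 first. The canonical length, the DESeq2 fits without single libraries and with the block, and the list values without cre+ 1 were chosen after seeing the data.

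With 3 and 4 libraries, the permutation test cannot go below 0.0286, and a difference of the size of Grin2d, -0.17 ± 0.29, could not be told from 0. Libraries of neurons from whole brain mix neuron classes, and protein was not measured. The libraries also held transcripts of other cell types, although the study reported high enrichment of neurons. In cre- libraries the endothelial markers summed to 9321 to 12927 CPM and the pan-neuronal markers to 2805 to 4053 CPM. In cre+ libraries these sums were 13899 to 20253 and 1662 to 2830 CPM. Astrocyte, mural and microglia sums lay below the pan-neuronal sums. What part of the cells these sums stand for was not tested.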
